A study of Mus musculus with 4 samples.

Results

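The regions described here are all peaks on mouse chromosome 8 whose start lies from 19 to below 23 Mb of the build mm9, a 4 Mb interval given the working name of the defensin and duplicated region. They number 378 of 809030 deposited peaks: 49 of 109740 in proliferating cells and 329 of 699290 in arrested cells. The interval was chosen on the measured widths, because earlier results of these data had shown very wide peaks in it. Its widths and covered lengths are therefore a description and carry no test.

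The peaks came from chromatin immunoprecipitation followed by sequencing (ChIP-seq), which recovers DNA fragments bound to a protein with antibodies and maps where their reads pile up. Chromatin was taken at passage 4 from primary embryonic fibroblasts (MEFs) of C57BL/6 mice at E13.5, fixed with formaldehyde and a longer cross-linker. Several antibodies are listed, all directed at pRb, the retinoblastoma protein, which holds back E2F-driven cell cycle genes and takes part in silencing chromatin. The proliferating group was an asynchronous culture in 10% serum, and the arrested group had been kept in 0.1% serum for 72 hours. Each group had 1 immunoprecipitated library, and both carry the label KO with no gene named. The sources used here do not say whether these cells still made pRb, so the peaks are described as called intervals and not as sites bound by pRb. Read numbers per peak are not in the lists, which leaves depth unknown, and with 1 library per condition no difference between conditions has a replicate check.

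Defensins are small cationic peptides that kill microbes by disrupting their membranes. In the mouse, alpha-defensins (Defa genes, also called cryptdins) are made by Paneth cells at the base of intestinal crypts, and beta-defensins (Defb genes) by many epithelia and by the epididymis. Both families grew by repeated duplication, and copies of a duplicated sequence are hard to tell apart with short reads.

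Whether the interval holds the defensin genes was not checked on its own build, because no mm9 annotation or sequence was used here, and only the order of genes in a later build can be given. In RefSeq's GRCm38.p6 annotation of chromosome 8, 128 genes lie between Xkr5 and Atp7b, which encodes a copper transporter. They include 24 protein-coding Defb genes, 29 protein-coding Defa genes and 11 Defa pseudogenes, and 34 other pseudogenes. No peak could be assigned to any of these genes, since coordinates of the 2 builds were not mixed. How alike the copies are is shown by the 250 bases before the start of Defa genes, which RefSeq gives for 16 of the 29. In an ungapped comparison, 5 of the 120 pairs were identical and 13 were at least 95% identical, while the median pair was 28.0% identical. An inserted or lost base shifts the later positions in such a comparison, so its low values do not show how far copies have diverged. Defa36 and Defa37 share one sequence over this window, and Defa35 differs from it at 5 bases (98.0% identical). Their sequences are printed to show how little distinguishes such copies, with the differing bases in capitals and both on the plus strand of GRCm38.p6.
Defa37: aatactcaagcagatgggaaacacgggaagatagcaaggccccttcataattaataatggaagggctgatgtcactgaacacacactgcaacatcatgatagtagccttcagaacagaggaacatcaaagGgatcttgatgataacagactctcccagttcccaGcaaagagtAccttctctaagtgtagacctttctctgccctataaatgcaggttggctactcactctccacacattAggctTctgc
Defa35: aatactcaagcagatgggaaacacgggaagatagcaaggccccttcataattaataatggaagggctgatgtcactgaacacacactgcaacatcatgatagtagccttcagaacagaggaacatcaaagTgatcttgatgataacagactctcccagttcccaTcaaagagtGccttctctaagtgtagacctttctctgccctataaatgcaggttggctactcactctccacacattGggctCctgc

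Peaks were scarce in the interval in both lists. Proliferating cells had 1.23 peaks per 100 kb there and 4.47 in the rest of chromosome 8, a ratio of 0.274. Arrested cells had 8.23 and 27.2, a ratio of 0.302. The rest of the chromosome would have given 179 and 1090 peaks over 4 Mb, and counting error alone places the observed 49 between 36.3 and 64.8 and the observed 329 between 294 and 367 (exact Poisson intervals, 95%). Set beside the other windows when chromosome 8 is divided into 32 windows of 4 Mb, the interval held the fewest peaks in each list. The next lowest windows held 83 proliferating and 653 arrested peaks, and the medians of the other windows were 182 and 1114.

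**Figure D1:**
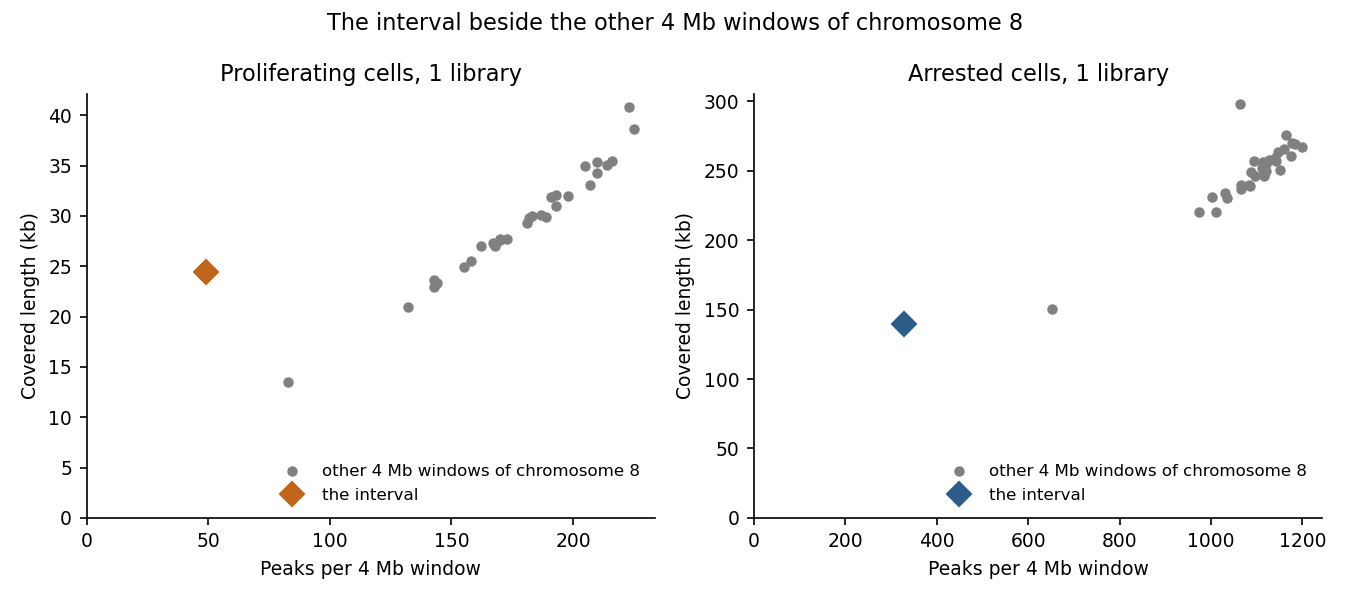
Number of peaks (horizontal axis) and covered length in kb (vertical axis) of each 4 Mb window of chromosome 8, with 1 library per panel. The interval (diamond) held 49 proliferating and 329 arrested peaks, fewer than each other window (grey points), while its covered length lay above the line of the other windows for that number of peaks.

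Covered length was closer to that of the rest of the chromosome than the number of peaks was. Proliferating peaks covered 24.4 kb of the interval, or 611 bp per 100 kb against 733 in the rest of the chromosome (ratio 0.833). Arrested peaks covered 140 kb, or 3493 bp per 100 kb against 6206 (ratio 0.563). Of the other 31 windows of 4 Mb, 5 had less proliferating covered length than the interval and none had less arrested covered length. The interval made up 3.11% of the 100 kb bins of the chromosome and held 0.871% of its proliferating peaks but 2.60% of their covered length. For arrested peaks these shares were 0.958% and 1.77%.

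The interval was not uniform along its length. In 100 kb bins it fell into a left flank from 19 to 19.6 Mb, a stretch of very wide peaks from 19.6 to 20.1 Mb, an empty stretch from 20.1 to 22 Mb and a right flank from 22 to 23 Mb. The rule for these limits was set after the bins were seen: the longest run of bins without a peak in either list, and before it the bins from the first peak of at least 1000 bp. By this rule no peak of at least 1000 bp can start in the left flank or the empty stretch. The largest feature was the empty one: from 20038078 to 22039003, 2.001 Mb or 50.02% of the interval, neither list had a peak. Proliferating peaks were absent over slightly more, 2.05 Mb, up to 22058045. The longest distance between neighbouring peaks in the rest of chromosome 8 was 1.79 Mb in proliferating and 1.72 Mb in arrested cells, and the next longest were 189 and 58.5 kb. At the density of the rest of the chromosome, the 19 bins from 20.1 to 22 Mb would have held 84.9 proliferating and 518 arrested peaks. The 0 found there was fixed by the rule that set the stretch, so no counting interval is given for it. Outside these empty 2.001 Mb, the remaining length of the interval had 2.45 proliferating and 16.5 arrested peaks per 100 kb, ratios of 0.549 and 0.604 to the rest of the chromosome, and ratios of covered length of 1.67 and 1.13. With bins empty in both lists left out of the interval and of the rest alike, the ratios of covered length were 1.57 and 1.06. Of the 4 stretches, only the one with wide peaks was above the rest in covered length, with ratios of 5.40 in proliferating and 2.07 in arrested cells. The rule kept wide peaks out of the left flank and all peaks out of the empty stretch, so this contrast is partly fixed by it. The left flank had ratios of 0.389 and 0.987, and the right flank 0.400 and 0.622. Whether the empty stretch holds sequence to which reads can map was not tested.

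**Figure D2:**
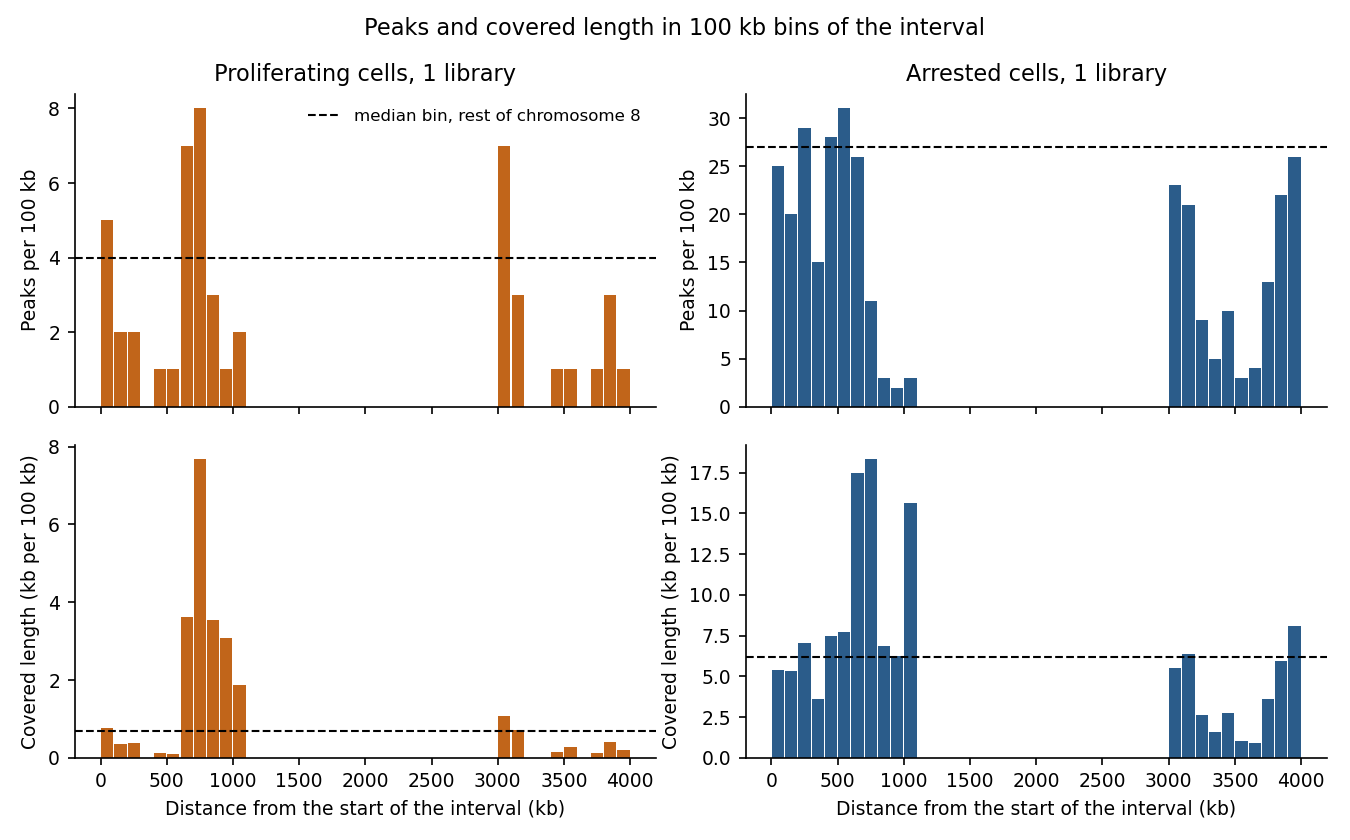
Peaks per 100 kb (upper panels) and covered length in kb per 100 kb (lower panels) against distance in kb from the start of the interval, with 1 library per column; the dashed line is the median bin in the rest of chromosome 8. No bar stands between 1100 and 3000 kb in either list, and the highest bars of covered length in either list lie between 600 and 1100 kb.

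In the left flank arrested peaks were nearly as dense as elsewhere on the chromosome, with 148 in 0.6 Mb (counting interval 125 to 174) where 163 would be found at the density of the rest. Proliferating peaks numbered 11 (5.49 to 19.7) where 26.8 would be found. The proliferating bin from 19.3 to 19.4 Mb held no peak, and those from 19.4 to 19.5 and 19.5 to 19.6 Mb held 1 each. The same 3 bins held 15, 28 and 31 arrested peaks, against a median of 27 per bin in the rest of the chromosome, and the last 2 were among the 3 fullest arrested bins of the interval by number of peaks. Median widths in the left flank were 154 bp in proliferating and 171 bp in arrested cells, against 154 and 166 bp in the rest. The rule that set this flank kept peaks of at least 1000 bp out of it. The difference between lists was not tested, because it compares 1 library with 1 library.

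From 19.6 to 20.1 Mb covered length was high for the number of peaks. Proliferating cells had 21 peaks in this 0.5 Mb, near the 22.3 that the rest of the chromosome gives, but those peaks covered 19.8 kb, 5.40 times the covered length per 100 kb of the rest. Arrested cells had 45 peaks where 136 would be found, and these covered 64.4 kb, 2.07 times the rest. The median width was 592 bp in proliferating and 567 bp in arrested cells, 3.84 and 3.42 times that of the rest of the chromosome. By covered length, the 3 fullest proliferating bins of the whole chromosome lay here: 7670 bp from 19.7 to 19.8 Mb, 3615 bp from 19.6 to 19.7 Mb and 3551 bp from 19.8 to 19.9 Mb, against a median of 694 bp and a highest value of 3201 bp in the other 1248 bins. The 3 fullest arrested bins of the interval were also here, with 18308 bp from 19.7 to 19.8 Mb, 17497 bp from 19.6 to 19.7 Mb and 15661 bp from 20 to 20.1 Mb. They ranked 5, 6 and 7 on the chromosome, below 4 bins elsewhere that reached 23894 bp. Arrested counts were uneven over the 5 bins, with 26, 11, 3, 2 and 3 peaks against a median of 27 in the rest of the chromosome.

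Of the interval's proliferating peaks, 7 of 49 were at least 1000 bp wide (14.3%). The share over the whole proliferating list was 0.0137%. Since width chose the interval, no counting interval is given and nothing is read from the difference. All 7 lay in the wide-peak stretch, within 320 kb of sequence. The rule that set the stretch left the right flank as the only other part that could hold them. The rest of chromosome 8 had 0 such peaks among 5575, which allows up to 0.0538%, and its widest proliferating peak measured 827 bp. The widest in the interval ran over 3859 bp from 19723688 to 19727546, and the next over 3083 bp from 19973239 to 19976321. The others measured 1874 bp from 19883385, 1503 bp from 20009101, 1291 bp from 19768780, 1239 bp from 19690357 and 1085 bp from 19801692. They covered 13.9 kb, or 57.0% of the proliferating covered length of the interval. At the limit itself, the widest peak left out measured 919 bp and the narrowest counted measured 1085 bp.

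Among arrested peaks 17 of 329 were at least 1000 bp wide (5.17%), against 0.0521% of the whole list. Width is again the measure that chose the interval, so no counting interval is given. The rest of chromosome 8 had 24 among 34000 (0.0706%), the widest of them 2885 bp. Of the 17, 16 lay in the wide-peak stretch, within 358 kb of sequence, and 1 of 1248 bp lay in the right flank from 22149607. The rule that set the stretch again allowed them in no other part. The widest was 10736 bp, from 20027342 to 20038077, and its end is also the edge of the empty stretch. It was followed by 6563 bp from 19748738, 5215 bp from 19904715, 4597 bp from 19870267 and 3965 bp from 19689516. The next 5 measured 3854 bp from 19694114, 3066 bp from 19774285, 2810 bp from 20006719, 2130 bp from 19681518 and 2115 bp from 20015831. Together the 17 covered 55.0 kb, 39.4% of the interval's arrested covered length. The widest arrested peak below the limit measured 878 bp and the narrowest above it 1037 bp. At a lower limit of 500 bp, 12 proliferating peaks (24.5%, against 0.072% of the list) and 44 arrested peaks (13.4%, against 3.14%) counted as wide. All 12 of those proliferating peaks and 24 of the 44 arrested ones lay in the wide-peak stretch.

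**Figure D3:**
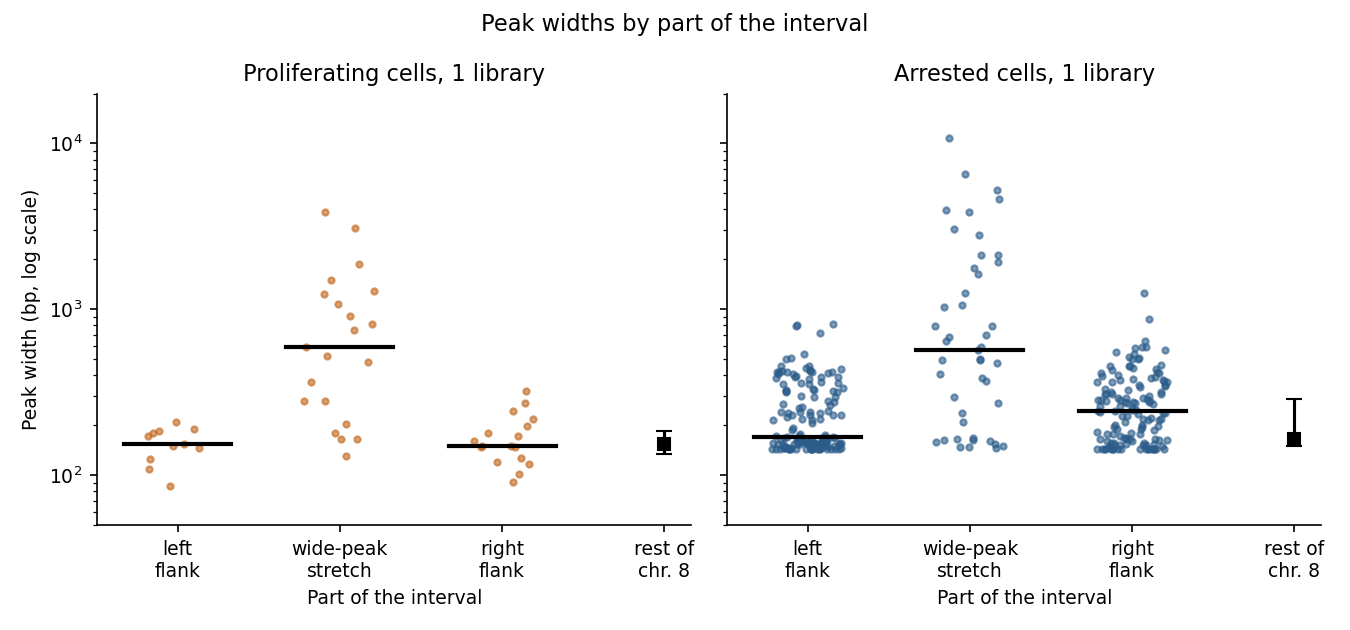
Peak width in bp on a log scale for each peak of the left flank, the wide-peak stretch and the right flank (points; black lines are medians), with the median and quartiles of the rest of chromosome 8 as squares with bars. The stretch had medians of 592 bp in proliferating and 567 bp in arrested cells, and the arrested right flank, at 245 bp, also lay above the 166 bp of the rest.

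Most wide peaks of the 2 lists lay in the same stretch, and some of them overlapped a peak of the other list. Of the interval's proliferating peaks 11 of 49 overlapped an arrested peak by at least 1 bp (22.4%, interval 13.0 to 35.9), against 11.6% of the whole list and 10.7% of the rest of chromosome 8. Of its arrested peaks 10 of 329 overlapped a proliferating peak (3.04%, interval 1.66 to 5.50), against 1.82% and 1.75%. The excess over the rest of the chromosome was 11.7 percentage points in proliferating and 1.29 in arrested cells. It depended on several settings. In proliferating cells it was 1.81 in the upper 50% of the lists by score. It was 0.584 there where at least 50% of both peaks had to overlap, with all scores kept. In arrested cells it was -0.0411 with scores of at least 50, a limit that left the interval no proliferating peak. Without peaks of at least 1000 bp in either list it was 1.29 and -0.125. Without the wide-peak stretch it was -0.0301 and -0.694. In the wide-peak stretch 8 of 21 proliferating peaks were shared, in the right flank 3 of 17 and in the left flank 0 of 11. By width, 3 of the 7 proliferating peaks of at least 1000 bp were shared (42.9%, interval 15.8 to 74.95) and 8 of the 42 narrower ones (19.05%, interval 9.98 to 33.3). In arrested cells 5 of the 17 wide peaks were shared (29.4%, interval 13.3 to 53.1) and 5 of the 312 narrower ones (1.60%, interval 0.686 to 3.70). A wider peak has more bases in which an overlap of 1 bp can fall, and shares at matched width were not computed.

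The overlaps made 12 pairs of peaks with 5484 bp in common, and 9 of the pairs lay in the wide-peak stretch. In 3 pairs both peaks were at least 1000 bp wide. The 1239 bp proliferating peak from 19690357 (score 30.57) lay wholly inside the 3965 bp arrested peak from 19689516 (score 195.46), as did its 919 bp neighbour from 19691608. The 1291 bp proliferating peak from 19768780 (score 26.78) shared 1250 bp with the 1765 bp arrested peak from 19768821 (score 50.48). The 1503 bp proliferating peak from 20009101 (score 28.66) shared 428 bp with the end of the 2810 bp arrested peak from 20006719 (score 42.26). An 815 bp proliferating peak from 19680982 reached into 2 arrested peaks, of 1061 and 2130 bp, and a 279 bp proliferating peak from 19770142 lay inside the same 1765 bp arrested peak. The other 4 wide proliferating peaks overlapped none: the nearest arrested peak lay 13648 bp from the widest, 30397 bp from the 3083 bp peak, 8521 bp from the 1874 bp peak and 6776 bp from the 1085 bp peak. Among arrested peaks, 12 of the 17 wide ones had no overlap, including the 3 widest, which lay 16253, 3692 and 13753 bp from the nearest proliferating peak. The whole arrested list, with a median width of 166 bp, had 1.82% shared against 29.4% of these wide peaks. The widths are unlike, so nothing is read from the difference.

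**Figure D4:**
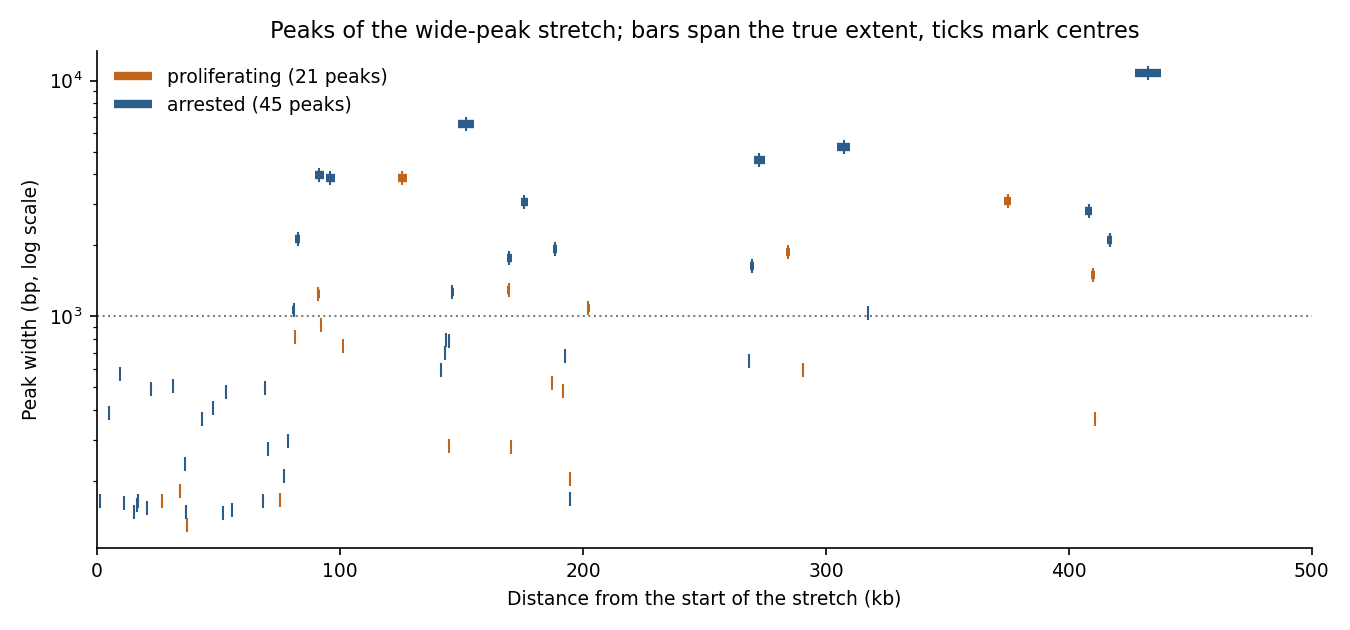
Each peak of the wide-peak stretch as a bar at its true extent, by distance in kb from the start of the stretch (horizontal axis) and width in bp on a log scale (vertical axis), 21 proliferating and 45 arrested peaks; ticks mark centres and the dotted line 1000 bp. Wide peaks of both lists lie within the same 358 kb. Of these, 3 of 7 proliferating and 5 of 16 arrested ones overlap a peak of the other list. Over the whole lists, 11.6% of proliferating and 1.82% of arrested peaks overlap a peak of the other list.

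The scores of the widest peaks lay mostly above the list median in proliferating cells and mostly below it in arrested cells. Scores are values the authors gave each peak on an unstated scale, and they are read here only within a list. The 7 wide proliferating peaks scored 21.43 to 30.57 with a median of 28.66, above the list median of 24.32 in 6 of 7, and the widest of all had the lowest of these scores, which only 17.9% of the list lay below. The highest of the 7 scores exceeded 75.4% of the list. In the rest of chromosome 8, proliferating medians were 24.01 under 200 bp, 26.55 from 200 to below 500 bp and 33.34 for the 3 peaks from 500 to below 1000 bp. The 17 wide arrested peaks scored 25.57 to 220.74 with a median of 56.56, below the list median of 97.45 in 12 of 17. The 24 wide arrested peaks in the rest of chromosome 8 had a median of 62.97, so low scores of wide arrested peaks are not particular to the interval. The 10736 bp peak scored 76.02, above 29.4% of the list. In the stretch, 4 of the 16 wide arrested peaks scored above the list median. The 6563 and 3965 bp peaks had scores of 220.74 and 195.46, which exceeded 90.9% and 87.6% of the list. The 5215 and 1631 bp peaks had 130.29 and 107.74, which exceeded 66.9% and 56.1%.

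The interval's highest scores belonged mostly to narrow peaks. In arrested cells the 5 highest were 499.77 (175 bp from 19298226, in the left flank), 419.89 (153 bp from 22064106), 308.27 (190 bp from 22867397), 296.40 (164 bp from 19616661) and 284.64 (201 bp from 22091331). In proliferating cells they were 42.68 (199 bp from 22989349), 40.27 for both an 86 bp peak from 19500286 and a 91 bp peak from 22058046, 37.63 (110 bp from 19099152) and 36.75 (522 bp from 19786787). None of these 10 peaks was shared between the lists. Only 11.6% of the whole proliferating list and 1.82% of the arrested list were shared, so nothing is read from this. Over the interval the median score was 25.6 in proliferating cells (quartiles 23.2 and 31.1) against 24.4 in the rest of the chromosome, and 80.4 in arrested cells (quartiles 49.5 and 129) against 97.5. No other 4 Mb window of chromosome 8 had a lower arrested median, the lowest being 88.8. Within arrested peaks under 200 bp wide the medians were 107 in the interval and 115 in the rest, and from 200 to below 500 bp they were 55.0 and 64.3. From 500 to below 1000 bp they were 48.4 (27 peaks) and 81.4, and at 1000 bp or more 56.6 (17 peaks) and 63.0 (24 peaks).

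**Figure D5:**
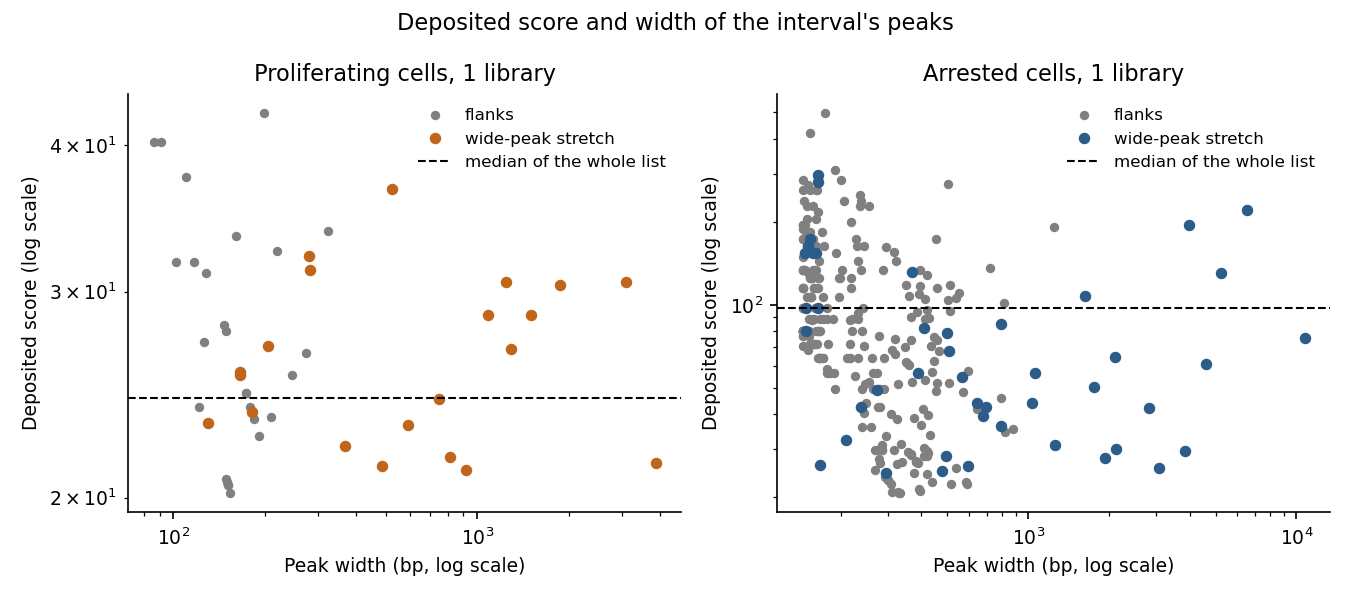
Deposited score against width in bp, both on log scales, for each peak of the interval, with 1 library per panel; coloured points belong to the wide-peak stretch, grey points to the flanks, and the dashed line is the median score of the whole list. Of the peaks of at least 1000 bp, 12 of 17 arrested ones lie below the line at 97.45 and 6 of 7 proliferating ones above the line at 24.32, and the highest scores in either panel are at the narrow end.

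The right flank was thin in its middle, a run of bins with under 50% of the median arrested covered length. The bins before and after this run are those the rule left over, so their arrested densities are partly fixed by it. From 22 to 22.2 Mb there were 10 proliferating peaks where 8.93 would be found and 44 arrested peaks where 54.5 would be found. From 22.2 to 22.7 Mb there were 2 proliferating peaks where 22.3 would be found. Arrested peaks numbered 31 where 136 would be found. Low arrested covered length chose these bins after they were seen, so no counting interval is given for the parts of the right flank. In these 5 bins arrested counts were 9, 5, 10, 3 and 4. From 22.7 to 23 Mb 5 proliferating (13.4 at the density of the rest) and 61 arrested peaks (81.7) were called. Arrested peaks of the right flank were wide as well as few, with a median of 245 bp and quartiles of 164 and 353 bp, although only 1 reached 1000 bp. Proliferating peaks there had a median of 151 bp, close to the 154 bp of the rest.

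The median distance from one peak to the next was 13.7 kb in the interval and 14.5 kb in the rest for proliferating peaks, and 2.68 and 2.30 kb for arrested peaks. Neither direction held in each setting tried: from 21 to 23 Mb alone the proliferating distance was 2.03 times that of the rest, and from 19 to 21 Mb alone the arrested one was 0.959 times it. In the wide-peak stretch it was 7.69 kb for proliferating and 3.18 kb for arrested peaks. After the empty stretch the longest distances were 249.3 kb in proliferating cells, from 22159308 to 22408574, and 88.8 kb in arrested cells, from 19917884 to 20006718. Each was exceeded by 1 distance in the rest of the chromosome. The edges of the interval were unremarkable: the peaks nearest to 19 Mb started at 18987535 and 19025347 in proliferating and at 18994306 and 19001187 in arrested cells. Those nearest to 23 Mb started at 22989349 and 23015265, and at 22997401 and 23003047, and none of the 8 was wider than 365 bp.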

How the data were processed

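The samples were 2 pRb immunoprecipitates and 2 inputs from MEFs labelled KO, grouped by title. Inputs and any wild-type reference are not analysed here. For each immunoprecipitate the authors deposited 1 list of peaks with 5 columns: chromosome, start, end, name and a score of unstated scale. Starts and ends are positions in bp, read from the deposited files and printed 1-based. The tools named in the submitters' processing notes are Bowtie2, MACS2, HOMER and bedtools, and the build is mm9. Not given in the sources used here are versions, settings, use of input, and handling of duplicate or multiply mapping reads.

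From these lists, widths, covered bases, distances between neighbouring peaks, scores and overlaps of at least 1 bp were computed. Bins were 100 kb, from the first to the last that held a peak (3.0 to 131.8 Mb, 1288 bins, of which 1248 outside the interval). A peak belongs to the bin of its start; covered bases are split at bin limits. Medians of distances leave out pairs that span the interval. Shares of overlapping peaks carry 95% Wilson intervals and some counts exact Poisson intervals, both for counting error only. None is printed where the measure chose the interval or its parts. A share of 0 allows 3 counts of the total. No hypothesis test was run. The peaks named are every proliferating peak of at least 1000 bp, the 10 widest arrested peaks, the 5 highest scores per list, the shared pairs with a wide peak, the fullest bins and the edge peaks. The interval, lists and rules were chosen with earlier results of these data known. Alternatives changed the peaks kept, the limits of the interval, the bin size, merging, the width limit, the overlap and the comparison set. Code was tested on simulated lists of 3000 peaks each, and 13 of 13 checks recovered the known answer. Promoter sequences and gene order are RefSeq's for GRCm38.p6, matched by symbol. Calculations used Python 3.11.15, numpy 2.4.6, pandas 2.3.3, SciPy 1.17.1 and matplotlib 3.10.9.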

Additional observations from a re-analysis of the deposited data

How the results depend on the processing

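No paired analysis was possible because each condition has 1 library and the labels give no replicate numbers, and for the same reason no replicate could be left out. Of 155 alternative values of 18 results, 104 stayed within 1.5 times the reported value (or its interval, for shares) on the same side, 35 moved and 16 turned. Ratios are interval to rest of chromosome 8, shares are in percentage points of difference, and proliferating values come first. The ratio of peak density stayed below 1 in each setting. With scores of at least 50 the interval kept 0 proliferating peaks (density and covered length ratios 0, fullest bin 0%, 100% of bins empty). Its highest proliferating score was 42.68, above 95.6% of the list. This limit therefore removes most of that list, and nothing is read from the 0. The excess of shared arrested peaks turned to -0.0411 at this limit, with no proliferating peak left in the interval to share. The upper 50% by score lowered the fullest bin to 3.08% and 6.56% covered, turned the proliferating spacing to 1.12 and the arrested score to 1.01, and lowered the proliferating sharing excess to 1.81. From 19 to 21 Mb alone, proliferating covered length turned to 1.47, arrested spacing to 0.959, and the arrested wide share rose to 8.22. From 21 to 23 Mb alone, covered length was 0.200 and 0.311, the fullest bin 1.06% and 8.09%, the proliferating width turned to 0.981 and its spacing to 2.03, and the wide share was 0 and 0.665. In 50 kb bins the fullest arrested bin was 31.3% covered. Without peaks of at least 1000 bp, covered length was 0.358 and 0.343, the fullest bin 2.52% and 8.09%, proliferating spacing turned to 1.16, and sharing excess was 1.29 and -0.125. Merging within 1000 bp turned proliferating spacing to 1.26. A limit of 500 bp gave an arrested wide share of 10.5, and one of 2000 bp gave 4.08 and 3.03. Overlap of 50% of both peaks gave a proliferating sharing excess of 0.584. Chosen after seeing the data were 2 settings. Without bins empty in both lists, density was 0.515 and 0.567, empty bins 19.05% and 0%, and covered length turned to 1.57 and 1.06. Without the wide-peak stretch, proliferating density was 0.179, covered length 0.181 and 0.347, the fullest bin 1.06% and 8.09%, proliferating width turned to 0.990 and spacing to 1.46, the wide share was 0 and 0.282, and sharing turned to -0.0301 and -0.694. Where the change does not follow from what a setting removes, the cause was not tested. Without read counts, depth could not be equalised.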

Other observations

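Empty stretches of this length were rare in the arrested list. On the autosomes and X, 4 distances between neighbouring arrested peaks reached 1 Mb. They lay on chromosome 1 (85343745 to 87344150, 2.0004 Mb), chromosome 7 (39355557 to 46356894, 7.0013 Mb), and 2 on chromosome 8, the stretch described above (2.0009 Mb) and from 56194471 to 57910187 (1.7157 Mb). None of the 4 held a proliferating peak. Within 500 kb of the chromosome 1 stretch, 17 of 101 arrested peaks before it and 13 of 118 after it were at least 1000 bp wide, and within 500 kb of the chromosome 8 stretch 16 of 65 before and 1 of 68 after. The other 2 stretches had 0 and 1 wide peaks beside chromosome 7, and 0 on either side of the second chromosome 8 stretch. The 48 wide peaks beside the 4 stretches are counted among 364 in the whole list. In proliferating cells, wide peaks stood beside the first chromosome 8 stretch alone among the 4, with 7 of 21 peaks before it. Whether these stretches are unsequenced in mm9 was not tested.

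Wide arrested peaks elsewhere on chromosome 8 gathered in 1 window: from 71 to 75 Mb there were 19 of the 24, more than the 17 of the interval. The widest of them ran over 2885 bp from 72088909 with a score of 175.92. That window held 0 proliferating peaks of at least 1000 bp.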
